A study of Saccharomyces cerevisiae with 24 samples.

Results

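The genes described here are 9 genes of *Saccharomyces cerevisiae* that glucose keeps low and that serve the use of other carbon sources: *SUC2* (YIL162W), *ADH2* (YMR303C), *FBP1* (YLR377C), *PCK1* (YKR097W), *JEN1* (YKL217W), *ACS1* (YAL054C), *ICL1* (YER065C), *MLS1* (YNL117W) and *ADY2* (YCR010C). They were named as genes repressed by glucose and linked to Cdk8, the kinase of the Mediator complex, and were found in the data by the gene symbol of the probe. Each had 1 probe, so that they make up 9 of the 6388 gene probes on the array. The study profiled strains in which the C-terminal repeat domain (CTD) of the largest RNA polymerase II subunit was shortened, with or without *CDK8*, on 24 dual-channel microarrays in 9 groups. On each array a sample was compared with a common reference RNA pool, and all values below are log2 ratios of sample over reference unless another unit is named.

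All strains were labelled BY4742, a laboratory strain of mating type alpha. Wild type was measured on 8 arrays, of which 4 carry the label k1 and 2 each k2 and k3. In the truncation mutants 11 (*rpb1-CTD11*), 12 (*rpb1-CTD12*), 13 (*rpb1-CTD13*) or 20 repeats (*rpb1-CTD20*) of the CTD remain, the gene ending early ahead of a drug resistance cassette (NAT). *RPB1-CTDWT*, labelled as repeats 1 to 26, is the matching strain with the cassette and a CTD of full length. *CDK8* was deleted at 11 repeats (*rpb1-CTD11 cdk8Δ*) and at 12 repeats (*rpb1-CTD12 cdk8Δ*), and 1 more wild type group was labelled 330 rpm. Each of these groups had 2 arrays, a with the sample in Cy3 and b with the sample in Cy5. Every culture was grown to mid-log phase at 30 °C in synthetic complete medium with 2% glucose, under agitation at 230 rpm by the protocol, which holds also for the group labelled 330 rpm. No culture was shifted to another carbon source, so all levels are those in glucose medium, and a *cdk8Δ* strain with a full CTD was not analysed here. The series' design text speaks of independent cultures for both arrays of a mutant, but their labels carry the same number, 1, so the spread behind the p-values may in part be technical. In such bulk RNA, fewer cells with a transcript and less of it per cell cannot be told apart.

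In yeast growing on glucose, the repressors Mig1 and Mig2 recruit the Cyc8-Tup1 corepressor to genes of sucrose use, gluconeogenesis and respiration. When glucose runs out, the Snf1 kinase relieves this repression and activates Cat8, Sip4 and Adr1, which switch on genes for growth on ethanol, acetate and lactate. Cdk8, which yeast geneticists also call Srb10 or Ssn3, belongs to a dissociable module of Mediator, and mutants of that module were found in genetic screens for relief of glucose repression of *SUC2*.

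The array signals set how well each of these genes could be measured. Sample signals had medians of 314 to 1184 per array, and the limit below which a probe was taken as background, percentile 99 of the empty spots, was 53.8 to 133. *ADH2*, with signals of 7898 to 32356, was at least 98.2 times over that limit on every array. *SUC2* (133 to 766), *ADY2* (136 to 742), *ACS1* (124 to 422), *ICL1* (121 to 431) and *PCK1* (73.3 to 229) passed the limit on all 24 arrays. *JEN1* (65.0 to 175) and *MLS1* (95.9 to 276) passed it on 23, the exception being in both cases the b array of *rpb1-CTD20*, which had the highest limit. *FBP1* (54.8 to 129) passed it on only 16 and on neither array of *rpb1-CTD12*, *rpb1-CTD13* or *rpb1-CTD20*. Since 50 units were added to every corrected signal, differences of the dim probes are understated. Signals of different probes are not levels that can be set against each other.

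**Figure D1:**
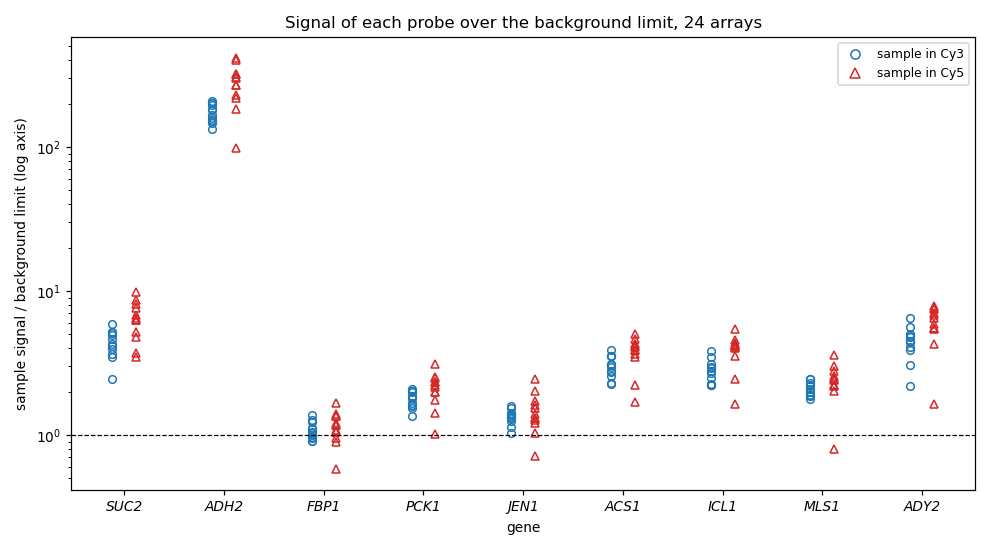
Sample signal of each gene's probe divided by the background limit of the same array, on a log axis, for all 24 arrays, with the sample in Cy3 as circles and in Cy5 as triangles. The dashed line marks a signal equal to the limit. *ADH2* lies at least 98.2 times over the limit, whereas *FBP1* scatters around it and passes on 16 arrays.

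The deletion was checked first. The probe of *SSN3*, the standard name of *CDK8*, read -1.60 and -1.75 on the arrays of *rpb1-CTD11 cdk8Δ* and -1.79 and -1.68 on those of *rpb1-CTD12 cdk8Δ*, and was not above background on any of the 4. It was above background on the 20 arrays of the other groups. The level was at least 2.90-fold lower in *rpb1-CTD11 cdk8Δ* (adjusted p = 5.5e-12) and at least 3.11-fold lower in *rpb1-CTD12 cdk8Δ* (adjusted p = 3.6e-12) than in wild type 330 rpm, where such a bound sets the brighter group against the lowest detected signal. Against the single mutant it was at least 2.48-fold lower at 11 repeats (adjusted p = 1e-11), and it was lower at 12 repeats too (adjusted p = 8.4e-12).

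*SUC2*, which codes for invertase, the secreted enzyme that splits sucrose, was lower in both double mutants. Over the 8 wild type arrays its lowest, median and highest log2 ratios were -0.02, 0.11 and 0.23. The arrays of *rpb1-CTD11* read 0.05 and 0.14, and those of *rpb1-CTD12* 0.07 and 0.40. The arrays of *rpb1-CTD11 cdk8Δ* read -0.74 and -0.61, and those of *rpb1-CTD12 cdk8Δ* -0.51 and -0.47. All 4 arrays of strains lacking *CDK8* thus lay below all 20 other arrays, the lowest of which was the a array of *RPB1-CTDWT* at -0.14. *SUC2* fell by 0.77 (SE 0.07) on the log2 scale in *rpb1-CTD11 cdk8Δ* against *rpb1-CTD11*, a 1.71-fold change with an adjusted p of 1.6e-08 in limma's moderated test. It fell by 0.72 (SE 0.07) in *rpb1-CTD12 cdk8Δ* against *rpb1-CTD12*, a 1.65-fold change (adjusted p = 8.1e-08). The fall against wild type 330 rpm was 1.67-fold at 11 repeats (-0.74, adjusted p = 5.4e-08) and 1.47-fold at 12 repeats (-0.55, adjusted p = 2.4e-06).

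In what follows a gene rose or fell where its adjusted p was under 0.01, and a second threshold was a fold change over 1.7. *SUC2* passed both only in *rpb1-CTD11 cdk8Δ* against *rpb1-CTD11*, and there narrowly. Without the a array of *rpb1-CTD11* the difference was -0.72, and without the b array of *rpb1-CTD11 cdk8Δ* it was -0.73, both under the fold threshold of 0.77 on the log2 scale. With the array medians of spiked-in controls as the scale, the fall stayed between -0.72 and -1.01 in these 4 comparisons. The adjusted p ran from 0.00065 to 0.039, and only the call in *rpb1-CTD11 cdk8Δ* against wild type 330 rpm was kept. The truncations alone left no *SUC2* difference that passed the test, with values from -0.10 in *rpb1-CTD13* to 0.12 in *rpb1-CTD12* (adjusted p = 0.062). In the order of the 9 group means the widest step, 0.50, lay between *rpb1-CTD13* and *rpb1-CTD12 cdk8Δ*. The 7 groups with *CDK8* followed each other at steps of 0.08 or less, near the SE of 0.07 that a difference between groups of 2 arrays had. The fall with loss of *CDK8* differed by -0.05 (SE 0.09) between 11 and 12 repeats, adjusted p = 0.81.

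**Figure D2:**
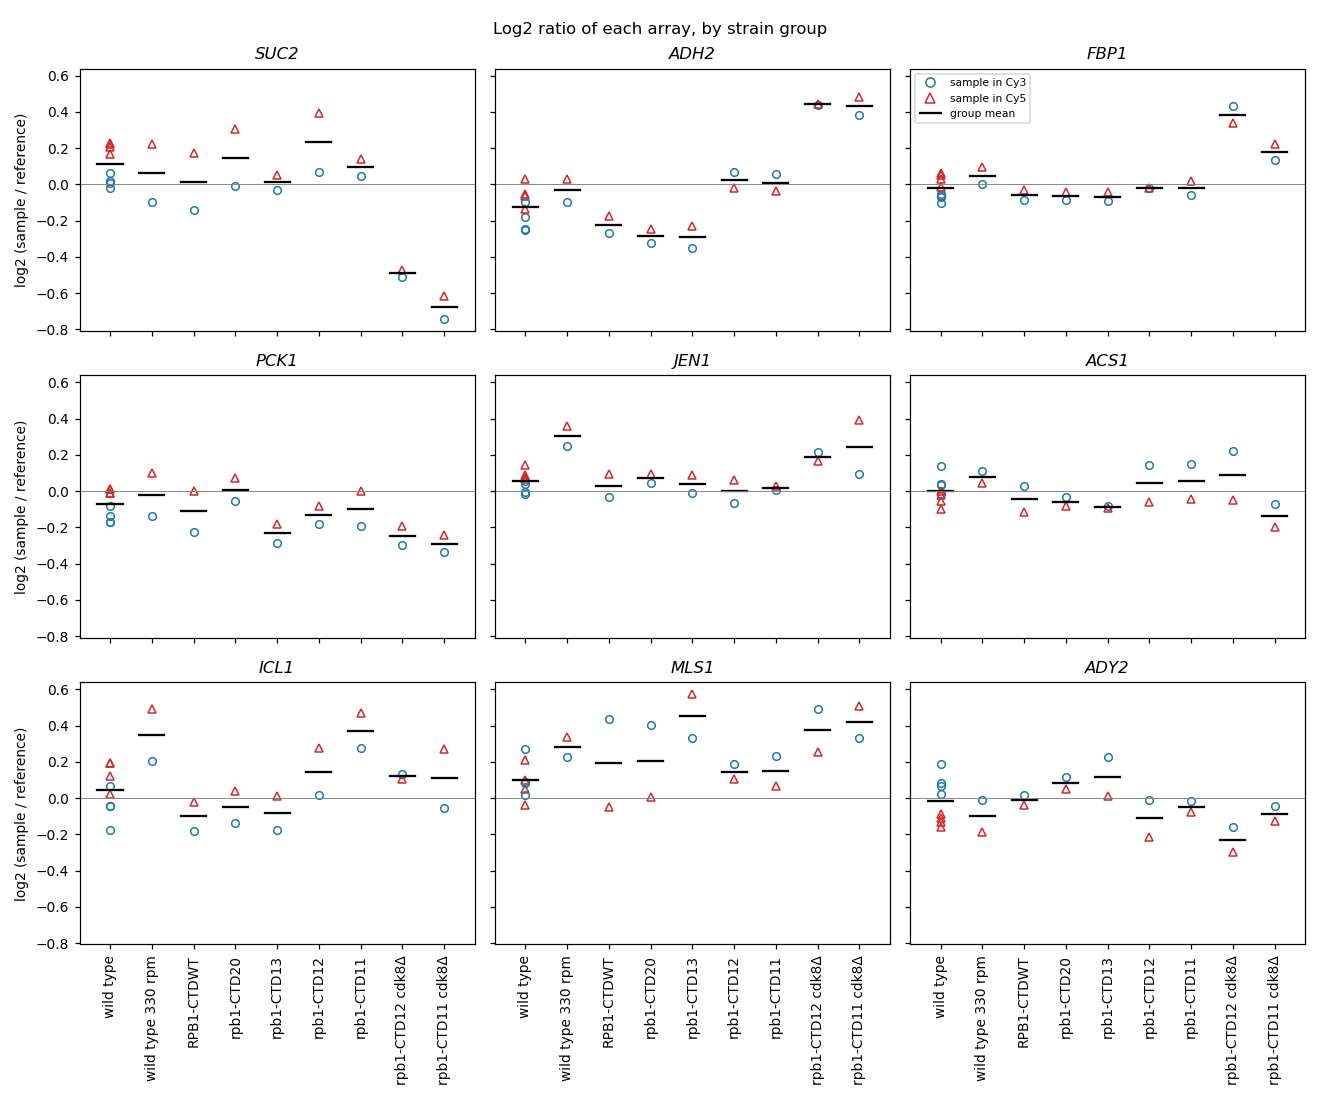
Log2 ratio of sample over reference (y axis) of each gene on each of the 24 arrays, by strain group (x axis), with the sample in Cy3 as circles, the sample in Cy5 as triangles and the group mean as a bar. For *SUC2* the 4 arrays without *CDK8* lie between -0.74 and -0.47, below all others, and for *ADH2* they lie between 0.38 and 0.48, above all others.

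*ADH2*, the alcohol dehydrogenase that turns ethanol back into acetaldehyde, moved the other way. Its wild type ratios were -0.25, -0.11 and 0.03 as lowest, median and highest. Both arrays of *rpb1-CTD11* (0.06 and -0.04) and of *rpb1-CTD12* (0.07 and -0.02) stayed at the upper end of that range or just over it. The arrays of *rpb1-CTD11 cdk8Δ* read 0.38 and 0.48, those of *rpb1-CTD12 cdk8Δ* 0.44 and 0.45, and no other array reached 0.10. *ADH2* rose by 0.42 (SE 0.07) with loss of *CDK8* at 11 repeats (1.34-fold, adjusted p = 4.6e-05) and by 0.42 (SE 0.07) at 12 repeats (1.33-fold, adjusted p = 7.8e-05). It rose against wild type 330 rpm by 0.47 and by 0.48 (adjusted p = 2.5e-05 and 2.2e-05). None of these reached the fold threshold. On the scale of the spiked-in controls all 4 calls were lost, with 0.19 (adjusted p = 0.65) and 0.19 (adjusted p = 0.75) against wild type 330 rpm and 0.62 (adjusted p = 0.085) and 0.57 (adjusted p = 0.2) against the single mutants. The responses at 11 and 12 repeats differed by 0.01 (95% interval -0.20 to 0.21, adjusted p = 0.98).

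A second probe bears on the *ADH2* value, because the transcript of *ADH1*, the main fermentative alcohol dehydrogenase, is close to that of *ADH2* in sequence and the array signal of *ADH2* was high in glucose medium. *ADH1* differed from the single mutant by 0.03 (adjusted p = 0.85) at 11 repeats and by -0.01 (adjusted p = 0.97) at 12 repeats. Against wild type 330 rpm it differed by 0.42 (adjusted p = 0.019) and 0.38 (adjusted p = 0.033). Whether *ADH1* RNA reached the *ADH2* probe was not tested. The lowest *ADH2* levels were those of *rpb1-CTD13* (-0.35 and -0.23) and *rpb1-CTD20* (-0.33 and -0.25), neither of which differed from wild type at the threshold (adjusted p = 0.052 and 0.16). In the deposited series table, whose values were made with another normalization, *ADH2* was 0.19 lower in *rpb1-CTD11* than in wild type (-0.19, adjusted p = 0.0025), against 0.13 (adjusted p = 0.038) here. No direction against wild type is therefore given for it in that mutant. In *rpb1-CTD12* it differed from wild type by 0.15 (adjusted p = 0.028). The paper names *RPB1-CTDWT* as its control for gene expression. Against that strain, in the normalization used here, *ADH2* was 0.23 higher in *rpb1-CTD11* (adjusted p = 0.0076) and 0.25 higher in *rpb1-CTD12* (adjusted p = 0.0068).

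In the main fit the enzymes particular to gluconeogenesis went in opposite directions. *FBP1*, fructose-1,6-bisphosphatase, lay close to background throughout. Its wild type ratios ran from -0.10 over a median of -0.04 to 0.06, and the arrays of *rpb1-CTD11* read -0.06 and 0.02. The double mutant arrays read 0.13 and 0.22 at 11 repeats and 0.43 and 0.34 at 12 repeats, all above every array with *CDK8*. At 12 repeats, where the single mutant was not above background on either array, *FBP1* was above background on both arrays without *CDK8* and passed the test (adjusted p = 1.2e-06), with no size given. At 11 repeats it rose by 0.20 (SE 0.05, adjusted p = 0.0012), with the single mutant above background on 1 of 2 arrays. This call was lost without the a array of *rpb1-CTD11* (0.19, adjusted p = 0.011) and without the b array of *rpb1-CTD11 cdk8Δ* (0.19, adjusted p = 0.016). Against wild type 330 rpm *FBP1* rose by 0.34 at 12 repeats (adjusted p = 1.2e-05) and differed by 0.13 at 11 repeats (adjusted p = 0.03). With an offset of 10 in place of 50, chosen after seeing the data, the latter was 0.28 (adjusted p = 0.0051). Both calls at 12 repeats were lost with median centring (adjusted p = 0.016 against *rpb1-CTD12* and 0.017 against wild type 330 rpm). They were also lost with spiked-in controls (adjusted p = 0.083 and 0.43). The call at 11 repeats was lost with median centring (adjusted p = 0.11) and spiked-in controls (adjusted p = 0.51). It was lost too without background correction (adjusted p = 0.032) and without a term for the dye (adjusted p = 0.024).

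In *rpb1-CTD12*, *rpb1-CTD13* and *rpb1-CTD20*, which had no *FBP1* signal above background, no size is given for a difference from wild type, and none passed the test (adjusted p = 0.96, 0.44 and 0.68). No size is given either for the contrast of its response between 11 and 12 repeats, which rests on *rpb1-CTD12* (adjusted p = 0.065, and 0.0074 without the b array of *rpb1-CTD12 cdk8Δ*).

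*PCK1*, phosphoenolpyruvate carboxykinase, the other committed step of gluconeogenesis, was lower in the double mutants. Wild type arrays ran from -0.17 over a median of -0.05 to 0.01, and wild type 330 rpm read -0.14 and 0.10. The arrays of *rpb1-CTD11 cdk8Δ* read -0.33 and -0.24, those of *rpb1-CTD12 cdk8Δ* -0.30 and -0.19, the lower value being in both cases that of the Cy3 array. The highest of these 4 values lay just below the a array of *rpb1-CTD11* (-0.19), and they overlapped the arrays of *rpb1-CTD13* (-0.28 and -0.18) and the a array of *RPB1-CTDWT* (-0.22). *PCK1* fell by 0.27 and by 0.23 against wild type 330 rpm (SE 0.04, adjusted p = 5.4e-05 and 0.00034). It fell by 0.19 with loss of *CDK8* at 11 repeats (adjusted p = 0.00097), and the difference at 12 repeats was -0.12 (adjusted p = 0.033). In *rpb1-CTD13* it was 0.16 lower than in wild type (-0.16, adjusted p = 0.0033), a call that was lost without either array of that mutant (-0.19 with adjusted p = 0.022 without a, -0.14 with adjusted p = 0.12 without b). The fall at 11 repeats was lost without the b array of *rpb1-CTD11* (-0.17, adjusted p = 0.015) and without the b array of *rpb1-CTD11 cdk8Δ* (-0.16, adjusted p = 0.021). The fall at 12 repeats against wild type 330 rpm was lost without the b array of that wild type (-0.17, adjusted p = 0.015). Both falls against wild type 330 rpm were lost with median centring (adjusted p = 0.31 and 0.36 at 11 and 12 repeats). They were also lost with spiked-in controls (adjusted p = 0.26 and 0.49) and without a term for the dye (adjusted p = 0.068 and 0.14).

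*ICL1*, isocitrate lyase, and *MLS1*, malate synthase, are the enzymes of the glyoxylate cycle, by which yeast builds sugars from acetyl-CoA. *ICL1* ratios in wild type ran from -0.18 over 0.04 to 0.20. They were 0.28 and 0.47 in *rpb1-CTD11* and 0.20 and 0.49 in wild type 330 rpm, in both groups at or above the wild type range. *ICL1* rose by 0.33 in *rpb1-CTD11* (SE 0.06, 1.26-fold, adjusted p = 0.00012) and by 0.31 in wild type 330 rpm (SE 0.06, adjusted p = 0.0033). When *rpb1-CTD11* was set against wild type 330 rpm instead, the difference was 0.03 (adjusted p = 0.81). The call in *rpb1-CTD11* against wild type was also lost with spiked-in controls (0.43, adjusted p = 0.12) and without a term for the dye (0.33, adjusted p = 0.024). In *rpb1-CTD11 cdk8Δ* the arrays read -0.05 and 0.27, and *ICL1* fell by 0.26 against the single mutant (SE 0.08, adjusted p = 0.0076). That fall was lost without any 1 of the a array of *rpb1-CTD11 cdk8Δ* (-0.19, adjusted p = 0.12), the a array of *rpb1-CTD11* (-0.26, adjusted p = 0.033) or its b array (-0.26, adjusted p = 0.034). At 12 repeats the difference with loss of *CDK8* was -0.03 (adjusted p = 0.81), and the contrast between both lengths was -0.24 (SE 0.11, adjusted p = 0.21). Set against wild type 330 rpm, *ICL1* differed by -0.24 at 11 repeats (adjusted p = 0.018) and by -0.23 at 12 repeats (adjusted p = 0.025). The former passed under 5 of 36 alternatives, among them the series table (-0.28, adjusted p = 0.005), and the latter under 2, in the series table (-0.25, adjusted p = 0.0093) and without the a array of *rpb1-CTD12 cdk8Δ* (-0.35, adjusted p = 0.0045).

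The *ICL1* values of wild type 330 rpm rested on 2 arrays, and the rise was lost without its a array (0.36, adjusted p = 0.033) and without its b array (0.25, adjusted p = 0.14). The wild type arrays labelled k3 had the lowest *ICL1* values once the dye was allowed for, a mean of -0.08 (n = 2) against 0.06 (n = 4) for k1 and 0.13 (n = 2) for k2. *MLS1* gave no difference that passed the test in any comparison. Its 2 arrays disagreed most in *RPB1-CTDWT* (0.44 and -0.05) and in *rpb1-CTD20* (0.40 and 0.01), and its SE, 0.14 for groups of 2 arrays, was the largest among the 9 genes. The highest *MLS1* mean was that of *rpb1-CTD13* (0.33 and 0.57), 0.36 above wild type with an adjusted p of 0.039. Both double mutants had 0.25 or more on every array (0.33 and 0.51, 0.49 and 0.25), which the highest wild type array, 0.27, overlapped. With loss of *CDK8* the *MLS1* differences were 0.27 (adjusted p = 0.11) and 0.23 (adjusted p = 0.19).

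*ACS1*, the acetyl-CoA synthetase used under low glucose, had the narrowest spread of group means. *ADY2*, an acetate transporter, gave no difference that passed the test in the main comparisons. *ACS1* in wild type ran from -0.10 over -0.01 to 0.14. It read -0.07 and -0.20 in *rpb1-CTD11 cdk8Δ* and 0.22 and -0.05 in *rpb1-CTD12 cdk8Δ*. *ACS1* fell by 0.21 in *rpb1-CTD11 cdk8Δ* against wild type 330 rpm (SE 0.06, adjusted p = 0.0067), and its difference from *rpb1-CTD11* was -0.19 (adjusted p = 0.011). The former call was lost when any 1 of the 4 arrays was left out (adjusted p = 0.02 to 0.071). At 12 repeats the corresponding differences were 0.01 (adjusted p = 0.91) and 0.04 (adjusted p = 0.57), and the contrast between the lengths was -0.23 (adjusted p = 0.097). *ADY2* in wild type ran from -0.16 over -0.03 to 0.19, and its group means spanned 0.35. The lowest adjusted p of *ADY2* in the main comparisons with wild type was that of *rpb1-CTD13*, at 0.13 (SE 0.04, adjusted p = 0.056). In *rpb1-CTD12 cdk8Δ* *ADY2* differed from wild type 330 rpm by -0.13 (adjusted p = 0.074). With wild type as the control instead, it was lower there and passed the test (-0.21, adjusted p = 0.00042).

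*JEN1*, the lactate permease, rose in the wild type labelled 330 rpm and with loss of *CDK8* at 11 repeats. Its wild type ratios ran from -0.02 over 0.06 to 0.14, and those of wild type 330 rpm were 0.25 and 0.36. *JEN1* rose by 0.25 in wild type 330 rpm (SE 0.04, adjusted p = 0.0017), which did not hold without its a array (0.26, adjusted p = 0.037) or its b array (0.24, adjusted p = 0.066). The 4 truncation mutants and *RPB1-CTDWT* had values from -0.06 to 0.09 and no difference that passed the test. The arrays of *rpb1-CTD11 cdk8Δ* read 0.09 and 0.39, which is a wide gap, and those of *rpb1-CTD12 cdk8Δ* read 0.22 and 0.17. *JEN1* rose by 0.23 against the single mutant at 11 repeats (SE 0.06, adjusted p = 0.0026), but without the b array of the double mutant the value was 0.11 (adjusted p = 0.12) and without the b array of *rpb1-CTD11* 0.19 (adjusted p = 0.035). At 12 repeats it was 0.19 higher (adjusted p = 0.01, just over the threshold). That value rested on single arrays and on the offset, being 0.11 (adjusted p = 0.18) without the a array of the double mutant, 0.27 (adjusted p = 0.004) without its b array and 0.35 (adjusted p = 0.0044) with an offset of 10. Of 35 alternatives 9 brought it past the threshold. Against wild type 330 rpm neither difference passed the test (-0.06 with adjusted p = 0.42, and -0.11 with adjusted p = 0.12). With wild type as the control *JEN1* rose by 0.19 in *rpb1-CTD11 cdk8Δ* (adjusted p = 0.0016).

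Few of the 9 genes passed the test in the strains with a shortened CTD alone. In *rpb1-CTD11* 1 of 9 passed the adjusted p (*ICL1*, higher), beside 49.1% of all probes, and none also passed the fold threshold, beside 3.90%. The median size of their differences, without sign, was 0.04, beside 0.16 over all probes. In *rpb1-CTD12* none passed, beside 36.0% of all probes and 2.25% with the fold threshold, and 3 had an unadjusted p under 0.05. In *rpb1-CTD13* 1 passed (*PCK1*, lower), beside 5.85%, and none with the fold threshold, beside 0.423%, and 4 had an unadjusted p under 0.05. In *rpb1-CTD20* none passed, beside 0.376% and 0.0939%, and 3 had an unadjusted p under 0.05. In *RPB1-CTDWT* none passed, beside 0.141% and 0.0783%, and 1 had an unadjusted p under 0.05. The median size without sign was 0.06 in *rpb1-CTD12*, beside 0.12 over all probes, and 0.12 in *rpb1-CTD13*, beside 0.06. It was 0.08 in *rpb1-CTD20* and 0.05 in *RPB1-CTDWT*, beside 0.04 over all probes in both. These 5 comparisons share the same wild type arrays.

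Wild type 330 rpm against wild type gave 2 of 9 (*JEN1* and *ICL1*, both higher), beside 4.46% of all probes, and none with the fold threshold, beside 0.297%. Both were among the genes whose calls were lost without either array of that group.

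Where *CDK8* was absent, genes changed in both directions. In *rpb1-CTD11 cdk8Δ* against *rpb1-CTD11*, 6 of 9 passed the adjusted p, beside 38.6% of all probes, with 3 higher (*ADH2*, *JEN1* and *FBP1*) and 3 lower (*SUC2*, *ICL1* and *PCK1*). *SUC2* was the 1 gene that passed the fold threshold too, beside 5.48% of all probes. In *rpb1-CTD12 cdk8Δ* against *rpb1-CTD12*, 3 of 9 passed, beside 32.4%, *ADH2* and *FBP1* higher and *SUC2* lower, and none with the fold threshold, beside 4.16%. Against wild type 330 rpm, 4 of 9 passed at 11 repeats, beside 28.4%, *ADH2* higher and *SUC2*, *PCK1* and *ACS1* lower. None passed the fold threshold there, beside 3.68%. At 12 repeats 4 of 9 passed, beside 26.8%, *ADH2* and *FBP1* higher and *SUC2* and *PCK1* lower, with none past the fold threshold, beside 3.18%. Comparisons of 1 double mutant share its 2 arrays, and both comparisons with wild type 330 rpm share that group. The medians of the 9 genes were between -0.11 and 0.04 in these 4 comparisons, with rises and falls on both sides. None of the 9 genes passed the test of a difference in response to loss of *CDK8* between 11 and 12 repeats, beside 2.29% of all probes at the adjusted p and 0.313% with the fold threshold, and 3 had an unadjusted p under 0.05. The labels of the double mutants do not name 330 rpm. With wild type as their control, 5 of 9 genes passed the adjusted p at either length, beside 2968 and 3107 of the 6388 probes. With wild type 330 rpm as the control those probe counts were 1816 and 1713.

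**Figure D3:**
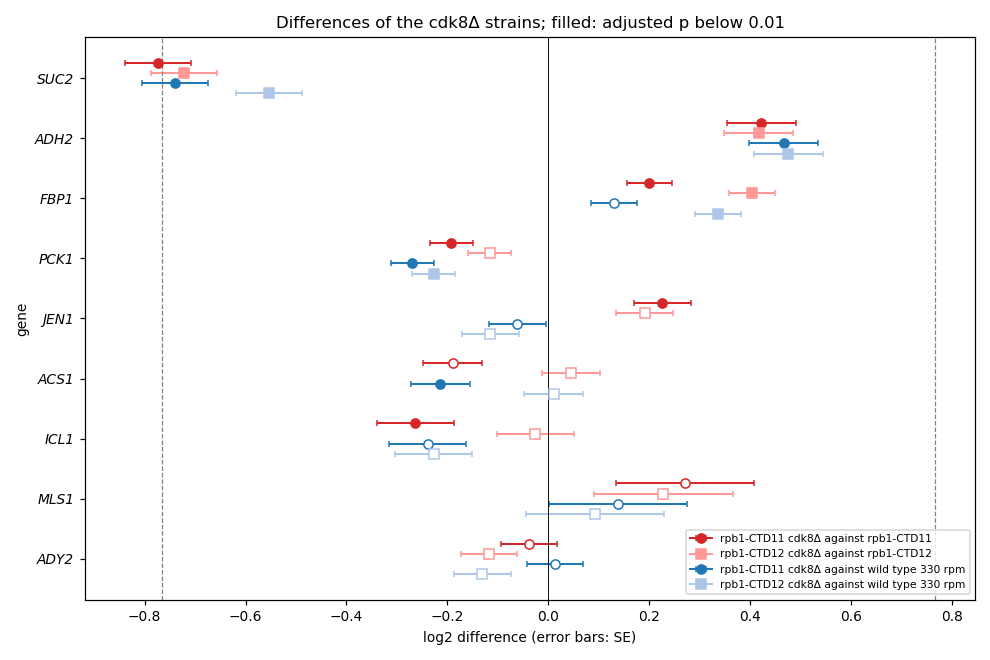
Log2 differences (x axis, error bars SE) of the 9 genes (y axis) in the double mutants, against their single mutants in red and pink and against wild type 330 rpm in blue, with filled symbols for an adjusted p below 0.01. The dashed lines mark the fold threshold of 1.7, which only *SUC2* crosses, at -0.77 in *rpb1-CTD11 cdk8Δ* against *rpb1-CTD11*, while *ADH2* lies at 0.42 to 0.48.

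Other features of the same strains moved with these comparisons. The probe of *OLI1*, a gene of the mitochondrial genome, read -5.04 and -5.15 in *rpb1-CTD11* and -4.98 and -5.23 in *rpb1-CTD12*, whereas it was 0.47 and 0.56 in *rpb1-CTD11 cdk8Δ* and -0.47 and 0.39 in *rpb1-CTD12 cdk8Δ*. The mean over the 8 measured transcripts of the mitochondrial genome, *OLI1* among them, was -1.03 to -0.91 on the 4 arrays of these single mutants. On those of the double mutants it was -0.17 to 0.16. Much of the low mean in the single mutants comes from *OLI1* itself, so it is not a separate measure. Each comparison of a double with its single mutant therefore sets strains with near-reference *OLI1* RNA against strains with very little, and loss of *CDK8* and this difference cannot be told apart there. *OLI1* differed from wild type 330 rpm by 0.98 (adjusted p = 0.0016) at 11 repeats and by 0.43 (adjusted p = 0.14) at 12 repeats, and in those comparisons *SUC2* was 0.74 and 0.55 lower and *ADH2* 0.47 and 0.48 higher. The auxotrophic markers moved too. *LYS2* was 2.65 to 3.07 above wild type in the 4 truncation mutants but 0.03 in *RPB1-CTDWT*, and *MET17* was 4.39 higher in *rpb1-CTD12 cdk8Δ* than in *rpb1-CTD12*, so that these 2 strains differ in *MET17* RNA as well. The mean over the measured markers was 0.69 to 1.01 on the arrays of *rpb1-CTD11* but -0.41 to -0.39 on those of *rpb1-CTD12*. In the double mutants it was 0.34 to 0.40 and 0.28 to 0.40. CTD length and marker RNA therefore cannot be told apart in the contrast between 11 and 12 repeats. Of the 4 markers of alpha cells all were lower in *rpb1-CTD11* than in wild type (median -1.83), beside 49.1% of all probes past the adjusted p there. Of the 5 markers of a cells none rose there and 1 (*BAR1*) fell. The part of any of these in the values of the 9 genes was not tested.

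Some regulators of the pathway changed too, a few of them by more than the fold threshold. Of all probes, 38.6% passed the adjusted p with loss of *CDK8* at 11 repeats and 32.4% at 12. With the fold threshold the shares were 5.48% and 4.16%, and they stand beside the repressors and activators below too. *HXK2*, *HXK1*, *GLK1* and *MTH1* were named from a longer list by p-value or fold change. The median of that list, given further below, lay near no change. *HXK2*, the hexokinase that also acts in repression with Mig1, fell by 1.33 with loss of *CDK8* at 11 repeats (SE 0.08, adjusted p = 1.3e-10) and by 1.20 at 12 repeats (adjusted p = 1.2e-09), and was -0.90 and -0.85 against wild type 330 rpm. *HXK1* and *GLK1*, the hexokinase and glucokinase of low glucose, rose by 1.86 and 0.96 at 11 repeats and by 1.53 and 1.01 at 12 repeats. *HXK1* was already higher than wild type in *rpb1-CTD11* (1.11, adjusted p = 0.0012) and *rpb1-CTD12* (1.48, adjusted p = 0.00014). *MTH1*, a partner of the repressor Rgt1 at hexose transporter genes, rose by 0.93 at 11 repeats (adjusted p = 1.2e-06) and was 0.30 higher at 12 repeats (adjusted p = 0.031).

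Among 7 repressor genes, *NRG1* and *NRG2*, whose products act at glucose-repressed promoters, rose by 0.71 and 1.19 at 11 repeats and by 0.82 and 1.14 at 12 repeats (adjusted p at most 1.8e-07). *MIG2* fell by 0.50 (adjusted p = 0.0031) and by 0.93 (adjusted p = 1.2e-05), while *MIG1* rose by 0.25 at 11 repeats (adjusted p = 0.002) and was -0.09 at 12 repeats (adjusted p = 0.22). *MIG3* fell by 0.57 at 12 repeats. *TUP1* fell by 0.35 and 0.31 (adjusted p = 0.001 and 0.0036).

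Among 6 activator genes, 3 rose at 11 repeats and 2 at 12 repeats, and none fell. Of all probes 38.6% passed the adjusted p at 11 repeats and 32.4% at 12, so these counts were near the shares of all probes. *HAP4*, the activating subunit of the complex for respiratory genes, rose by 1.22 and 0.69 (adjusted p = 1.2e-07 and 0.00014). *CAT8* rose by 0.35 and 0.36 (adjusted p = 9.1e-05 and 9.8e-05) from levels that were lower than wild type in *rpb1-CTD11* and *rpb1-CTD12* (-0.19 and -0.20, adjusted p = 0.002 each). Against wild type 330 rpm *CAT8* was 0.13 higher at either length (adjusted p = 0.097 and 0.096). *ADR1*, an activator of *ADH2*, rose by 0.62 at 11 repeats (adjusted p = 5.9e-06) and was 0.26 higher at 12 repeats (adjusted p = 0.017), and *SIP4* did not pass the test (adjusted p = 0.96 and 0.85).

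**Figure D4:**
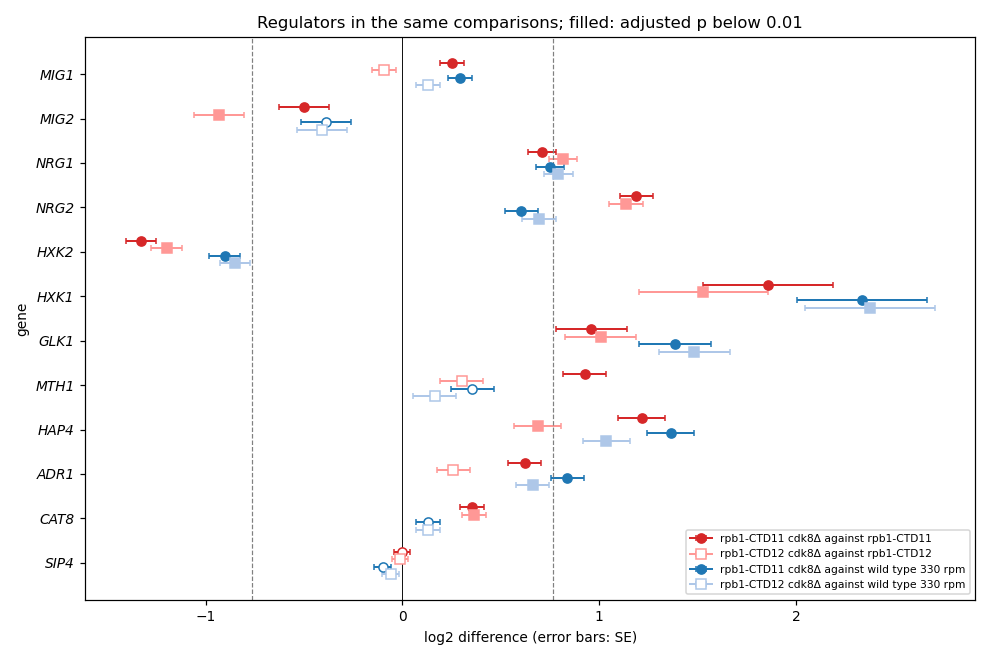
Log2 differences (x axis, error bars SE) of 12 regulator genes (y axis) in the comparisons used for the 9 genes, with filled symbols for an adjusted p below 0.01 and dashed lines at the fold threshold of 1.7. *HXK2* falls to -1.33 and -1.20 against the single mutants, and *NRG1*, *NRG2* and *HAP4* lie above 0 in each comparison.

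Other genes of non-glucose carbon use are given by counts past the adjusted p, beside the 38.6% of all probes that passed with loss of *CDK8* at 11 repeats and the 32.4% at 12 repeats. Of 12 other Cat8 and Sip4 targets, 4 rose and 4 fell with loss of *CDK8* at 11 repeats (median -0.06, beside 0.01 over all probes), and 4 rose and 4 fell at 12 repeats (median 0.10, beside 0.00). *PUT4*, a proline permease, rose by 1.41 and 1.38, *ATO3* fell by 0.76 and 0.72, and *MDH2*, the cytosolic malate dehydrogenase of gluconeogenesis, fell by 0.68 at 11 repeats. Of 13 Adr1 targets of fatty acid and glycerol use, 4 rose and 3 fell at 11 repeats and 5 rose and 2 fell at 12, *ECI1* rising by 0.59 and 0.55. The 13 galactose and maltose genes had medians of 0.01 and 0.02, with 3 higher and 2 lower at 11 repeats and 2 lower at 12, so that their share at 11 repeats was near that of all probes. Of 11 lactate and ethanol genes 3 rose and 3 fell at either length, among them *ALD3*, an aldehyde dehydrogenase, higher by 2.92 and 2.42, and *DLD1*, a lactate dehydrogenase, lower by 0.66 (-0.66) and 0.33 (-0.33).

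The paralogs of the 9 genes gave *ACS2*, the acetyl-CoA synthetase used on glucose, a fall of 0.33 and 0.52 (-0.33 with adjusted p = 0.0021 and -0.52 with adjusted p = 4e-05), and *ATO2*, the paralog of *ADY2*, a rise of 0.65 and 0.63. *ICL2* (0.11 and -0.02) and *DAL7* (-0.02 and 0.11), the paralogs of *ICL1* and *MLS1*, did not pass the test.

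The same shares of all probes, 38.6% and 32.4%, stand beside the following counts. Of the 5 measured hexose transporters 4 rose at 11 repeats, and 3 rose and 1 fell at 12, the low-affinity *HXT1* by 1.22 and 0.66 and the high-affinity *HXT6* by 1.20 and 0.95. *HXT1* was 0.93 lower in *rpb1-CTD11* than in wild type (-0.93, adjusted p = 3.6e-10). Of 12 post-diauxic and stress genes 11 rose at both lengths (medians 1.80 and 1.53), *SPI1* by 3.14 and 2.49. All 13 respiratory chain genes of the nucleus rose at both lengths (medians 1.03 and 0.76) and 10 of them were lower in *rpb1-CTD11* than in wild type, beside 49.1% of all probes past the adjusted p there, and 6 of 7 retrograde response genes fell at both (medians -1.03 and -0.97). Of 14 genes of gluconeogenesis and glycolysis none rose and 4 fell at 11 repeats, the largest being *PYC1*, a pyruvate carboxylase, at -2.79, and 2 rose and 2 fell at 12. The 18 genes of the Snf1 kinase and glucose sensing had medians of -0.01 and -0.02, and of the 4 genes of the Cdk8 module only *SSN3* passed the test in these comparisons.

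No group mean spread of the 9 genes exceeded 1 on the log2 scale, *SUC2* having the widest at 0.91 and *ACS1* the narrowest at 0.22. For *SUC2* and *ADH2*, chosen for this after their values were seen, the genes whose 9 group means ran most nearly parallel were found over all named probes. They were YHR078W, *YFH7* and YKL069W for *SUC2* (Pearson r = 0.99, 0.98 and 0.97 over 9 group means), and *UGA2*, *PIL1* and *STF2* for *ADH2* (r = 0.99 each). Between the members themselves, the group means of *SUC2* ran against those of *ADH2* (r = -0.83) and *FBP1* (r = -0.82), and with those of *PCK1* (r = 0.78). *ADH2* ran with *FBP1* (r = 0.90) and against *ADY2* (r = -0.83), and *FBP1* ran against *ADY2* (r = -0.80). The *FBP1* values include 3 groups not above background. All points share the reference pool, and these values are descriptions.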

How the data were processed

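RNA of 24 samples was hybridised with a common reference on dual-channel arrays. Per spot, the deposited scanner files give a foreground and a local background intensity, which the authors had not normalized. The deposited series table holds log2 ratios, which the authors made by loess within print tips (span 0.4), without subtracting background, and corrected for gene-specific dye bias. It correlated with the ratios computed here at 0.666 to 0.952 on each array, so its direction is sample over reference, and its column medians were -0.00938 to 0.0158. The study's limma was version 2.12.0. A deposited table of the authors' own fold changes and p-values was not used. The dyes were taken from the labels of the samples, from which the series' design text departs.

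Here normexp (offset 50) served as background correction, followed by global loess within arrays (span 0.3), in which control spots had weight 0, and by averaging both spots of each probe. Of 6388 gene probes 5326 had a gene name. A single limma 3.58.1 model under R 4.3.3 took in all 24 arrays, with a coefficient for each group and a term for the dye, which the letters a and b mark. Adjusted p-values are Benjamini-Hochberg values across every gene probe. No 2 arrays were identical. Differences of array a and b correlated between groups at 0.621 to 0.927 (median 0.831), so the letters pair samples by dye. The text calls a gene risen or fallen at an adjusted p under 0.01. The fit was tested on simulated data. All 9 genes are counted in every comparison and named where they passed the test, or by their values where a comparison turns on them. Named besides are the regulators past both thresholds in any comparison, the paralogs, and from each list some of the genes with its 3 lowest p-values. *HXT3* and *HXT7* had no matching probe name and were left out. The 9 genes and the lists were chosen with earlier results of these data known. The number of arrays limits the precision. Genome coordinates and promoter sequences were not used here.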

Additional observations from a re-analysis of the deposited data

Results flagged for a closer look

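Among the 8 wild type arrays, 2 values lay apart from the rest of their group once the dye was allowed for, by Dixon's test at its 95% limit of 0.526, which chance passes in about 1 of 20 groups. *PCK1* on array k1-c read -0.0116, above the next array at -0.06, with a gap of 0.56 of the group's range. *ADY2* on array k2-a read 0.11, above the next array at 0.01, with a gap of 0.55 of the range. No gene of the 9 passed the test of a difference between the responses to loss of *CDK8* at 11 and at 12 repeats.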

How the results depend on the processing

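The alternatives gave 3564 values for the 99 differences of the 9 genes. Of these, 3448 kept their side of the threshold and, where called, their direction, 73 lost the call, 41 gained one and 2 turned round. The 2 were *ADH2* in *rpb1-CTD11*, at -0.19 in the deposited series table, and *JEN1* in *rpb1-CTD11 cdk8Δ*, at 0.19 with wild type in place of wild type 330 rpm. The cause was not tested. Most of the 99 differences had not passed the test in the main fit. Among the values that kept their side, 123 passed in neither fit and were opposite in sign.

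The number of genes past the adjusted p moved as follows. Without background correction it was 0 in *rpb1-CTD13* and 1 in wild type 330 rpm. With median centring it was 0 in both, and 2 in each double mutant against wild type 330 rpm and in *rpb1-CTD11 cdk8Δ* against *rpb1-CTD11*. With spiked-in controls it was 5 in *rpb1-CTD13*, 1 in *rpb1-CTD11 cdk8Δ* against wild type 330 rpm, and 0 in *rpb1-CTD11*, wild type 330 rpm, *rpb1-CTD12 cdk8Δ* against wild type 330 rpm and both comparisons with single mutants. With the series table it was 2 in *rpb1-CTD11*. With the wild type label as a random block it was 0 in *rpb1-CTD13*. With wild type 330 rpm as the control it was 1 in *rpb1-CTD12*, 4 in *rpb1-CTD13*, 1 in *rpb1-CTD20* and 2 in *RPB1-CTDWT*. Against *RPB1-CTDWT*, *rpb1-CTD11* had 2 such genes, *rpb1-CTD12* had 1 and *rpb1-CTD13* had 0.

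The replicate block is the dye, by which the letters a and b pair the samples. Without the replicate block the number was 0 in *rpb1-CTD11*, *rpb1-CTD13* and wild type 330 rpm, and 2 in *rpb1-CTD11 cdk8Δ* against wild type 330 rpm and against *rpb1-CTD11*. Over all probes the counts fell without the block, from 2466 to 1137 in the last of these and from 3139 to 1570 in *rpb1-CTD11*.

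Leaving out each array in turn gave 1 to 2 genes in *rpb1-CTD11*, 0 in *rpb1-CTD12*, *rpb1-CTD20* and *RPB1-CTDWT*, 0 to 1 in *rpb1-CTD13*, and 0 to 2 in wild type 330 rpm. It gave 3 to 5 in each double mutant against wild type 330 rpm, 3 to 7 in *rpb1-CTD11 cdk8Δ* and 3 to 4 in *rpb1-CTD12 cdk8Δ* against the single mutants, and 0 to 1 for the contrast between both lengths. A lone array was taken to vary like the other groups.

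With spiked-in controls the median of all probes shifted by -0.50 in *rpb1-CTD13*, -0.14 in *rpb1-CTD20*, 0.34 in wild type 330 rpm, and -0.23 and -0.17 in the double mutants at 11 and 12 repeats against it. The count over all probes in *rpb1-CTD13* rose from 374 to 2221, and that in *rpb1-CTD11 cdk8Δ* against *rpb1-CTD11* fell to 319. By median signal over the background limit, *FBP1*, *JEN1* and *PCK1* were the dimmest, and *FBP1*, *JEN1* and *MLS1* fell below it on some array.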
